A study of Schizosaccharomyces pombe with 24 samples.

Results

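The fission yeast (Schizosaccharomyces pombe) genes for 5 stress-related bZIP transcription factors were followed across a wild type and 7 mutants of the machinery that forms mRNA 3′ ends. The genes are atf1 (SPBC29B5.01), pcr1 (SPAC21E11.03c), pap1 (SPAC1783.07c), atf31 (SPAC22F3.02) and atf21 (SPBC2F12.09c). They were chosen by name, by their identifiers in the count table, and make up 5 of its 6988 genes. All 5 passed the filter on low counts, as did 6287 genes in all.

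A bZIP factor binds DNA as a dimer through a basic region next to a leucine zipper. Atf1 is phosphorylated by the stress MAP kinase Sty1 (also called Spc1) and pairs with Pcr1 on CRE-like sites, and the pair is needed for much of the stress response, for entry into sexual differentiation and for silencing at the mating-type locus. Pap1 is the AP-1-like factor of the oxidative stress response: the exportin Crm1 keeps it out of the nucleus until peroxide oxidises it. Atf21 and Atf31 are Atf/CREB-family factors known from meiosis and spore formation.

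PolyA+ RNA was sequenced from haploid cultures in log phase at 30 °C in YES, a rich medium, with 8 groups of 3 biological replicates. The wild type (WT) is an h- strain without a marker in its label. Another 5 h- strains, ysh1-L74F, pta1-T524M, msi2-G252E and the 2 pfs2 alleles pfs2-V180F and pfs2-E104A, each carry 1 amino acid change, named in the label, together with a kanMX marker at a wild-type asp1 gene, which WT does not carry. The h- mutant pla1-Y86L has kanMX at pla1 itself, and cft1-L249Q is h+ with no marker in its label. Against WT, allele and kanMX cannot be told apart in the 6 marked strains, nor allele and mating type in cft1-L249Q. The 5 strains marked at asp1 share marker and mating type with each other.

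The mutated genes encode factors of the cleavage and polyadenylation machinery, among them the poly(A) polymerase Pla1 and the endonuclease Ysh1. Counts per gene cannot show an amino acid change, so the alleles were not checked here. Libraries held 19.4 to 29.3 M counts. Levels are given as CPM, read counts scaled to 1 common library total after TMM normalization. They are not per length, so a gene is compared only with itself. All 7 comparisons use the same 3 WT libraries and are therefore not independent of each other. In bulk cultures, more RNA per cell and more cells that hold the RNA cannot be told apart. The libraries hold polyA+ RNA, and the mutated genes act in forming mRNA 3′ ends. A change in how much of an RNA was tailed or captured therefore cannot be told apart from a change in its amount.

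atf31 was higher than WT in all 7 mutants, from 1.29-fold in pta1-T524M to 5.30-fold in msi2-G252E. atf1 rose in pfs2-V180F, pla1-Y86L and cft1-L249Q by 1.35- to 1.49-fold and fell in msi2-G252E and pfs2-E104A. pcr1 and pap1 rose in pfs2-V180F and cft1-L249Q by no more than 1.29-fold. atf21 was near the limit of detection and passed the test against WT in none of the 7 mutants.

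A gene was called at a Benjamini-Hochberg adjusted p under 0.05 in edgeR's quasi-likelihood test over all 6287 genes. In cft1-L249Q 4 of the 5 genes were called, all higher, where 43.3% of all genes tested were called. The count in pfs2-V180F was also 4, all higher, beside 48.1% of all genes. In pla1-Y86L 2 were higher and 1 lower, beside 64.6%, and 2 members were called without WT replicate 2. In pfs2-E104A 2 were higher and 1 lower, beside 34.2%, and 1 was left without WT replicate 1 or without pfs2-E104A replicate 2. In msi2-G252E 1 was higher and 1 lower, beside 58.8%, and 3 members were called without WT replicate 3. In pta1-T524M only atf31 was called, beside 38.4%, and no member was called without WT replicate 1 or without pta1-T524M replicate 2. In ysh1-L74F only atf31 was called, beside 14.4%, and 2 members were called without ysh1-L74F replicate 3. With so many genes called in each mutant, these counts of 5 were not read as departures from the rest of the genome.

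**Figure D1:**
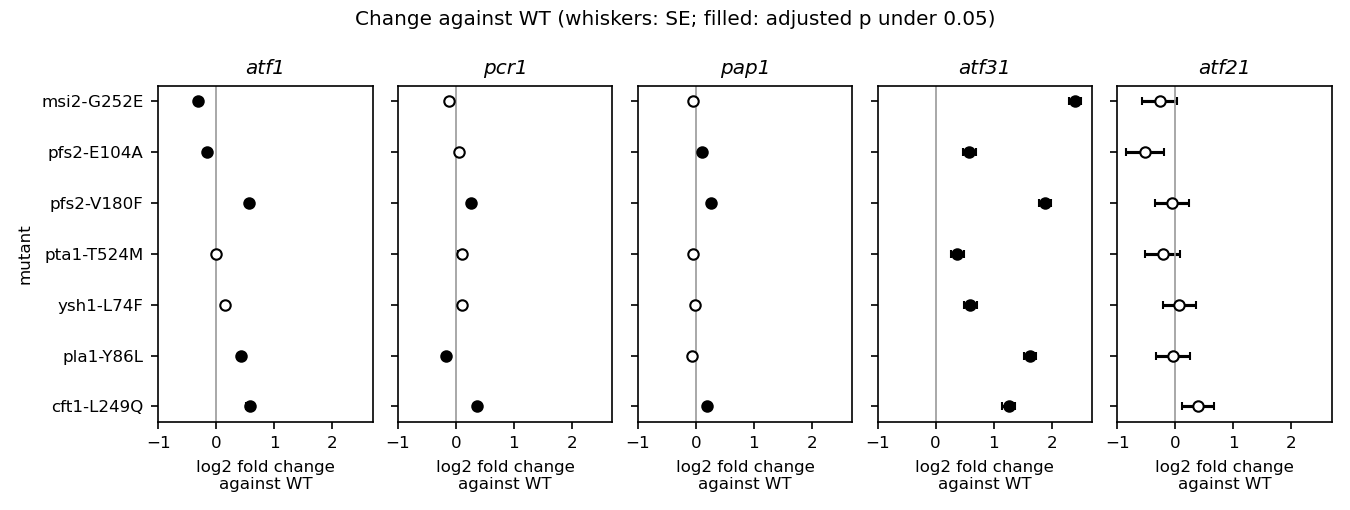
Log2 fold change of each of the 5 genes (panels) in each of the 7 mutants (rows) against WT, with whiskers of 1 SE; filled points passed the test (adjusted p under 0.05). The atf31 points all lie to the right of 0, up to 2.41 in msi2-G252E, while the atf1, pcr1 and pap1 points lie between -0.31 and 0.58.

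atf1, the phosphorylation target of Sty1, had 134.6, 132.3 and 120.6 CPM in the 3 WT libraries (mean 129 ± 7.48, SD, n = 3). In cft1-L249Q it had 193.6, 202.8 and 181.5 CPM, and in pfs2-V180F 194.5, 190.2 and 188.2 CPM. Every library of these mutants lay above every WT library. The log2 fold change was 0.58 ± 0.05 (SE) in cft1-L249Q (adjusted p = 1.82e-08, edgeR) and 0.56 ± 0.05 in pfs2-V180F (adjusted p = 1.87e-08). In pla1-Y86L, with 179.8, 173.3 and 168.0 CPM, the change was 0.43 ± 0.05 (adjusted p = 4.44e-07), again with no overlap with WT.

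The mutants with a lower atf1 level were msi2-G252E and pfs2-E104A. In msi2-G252E atf1 had 109.7, 105.4 and 98.2 CPM, all below WT, and it fell by 0.31 ± 0.06 on the log2 scale (adjusted p = 5.86e-05, edgeR). In pfs2-E104A it had 113.8, 112.8 and 121.1 CPM, so that its highest library overlapped the lowest of WT, and it fell by 0.16 ± 0.06 (adjusted p = 0.0333). That call was lost when WT replicate 1 (adjusted p = 0.134), WT replicate 2 (0.0911), pfs2-E104A replicate 1 (0.0958) or pfs2-E104A replicate 2 (0.103) was left out.

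The other 2 mutants were close to WT. In ysh1-L74F atf1 had 143.0, 150.3 and 138.9 CPM, all above WT, with a log2 fold change of 0.16 ± 0.05 that did not pass the test (adjusted p = 0.0552, edgeR). It passed without ysh1-L74F replicate 3 (adjusted p = 0.0426), and the authors' deposited table calls it, with a log2 fold change of 0.15 and an adjusted p of 0.0212. In pta1-T524M, with 138.9, 130.8 and 118.7 CPM, the libraries overlapped WT and the log2 fold change was 0.00 ± 0.06. From the highest mean level to the lowest the order was cft1-L249Q, pfs2-V180F, pla1-Y86L, ysh1-L74F, pta1-T524M, WT, pfs2-E104A and msi2-G252E. Neighbours in it did not pass the test for cft1-L249Q and pfs2-V180F (adjusted p = 0.896) or pta1-T524M and WT (adjusted p = 0.97). Of the 21 pairs of mutants, 20 were called for atf1. Among pairs further apart in the order, leaving out 1 library ended 2 of these calls. That of pta1-T524M over pfs2-E104A was lost without replicate 1 or 2 of either mutant (adjusted p up to 0.126). That of cft1-L249Q over pla1-Y86L was lost without pla1-Y86L replicate 3 or cft1-L249Q replicate 2 (up to 0.115). Among neighbouring mutants, leaving out 1 library ended the call of pfs2-V180F over pla1-Y86L (adjusted p up to 0.104, by pfs2-V180F replicate 1, pla1-Y86L replicate 2 or pla1-Y86L replicate 3), of ysh1-L74F over pta1-T524M (up to 0.222, by pta1-T524M replicate 3, ysh1-L74F replicate 1 or ysh1-L74F replicate 2) and of pfs2-E104A over msi2-G252E (up to 0.194, by msi2-G252E replicate 2, msi2-G252E replicate 3 or pfs2-E104A replicate 3).

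**Figure D2:**
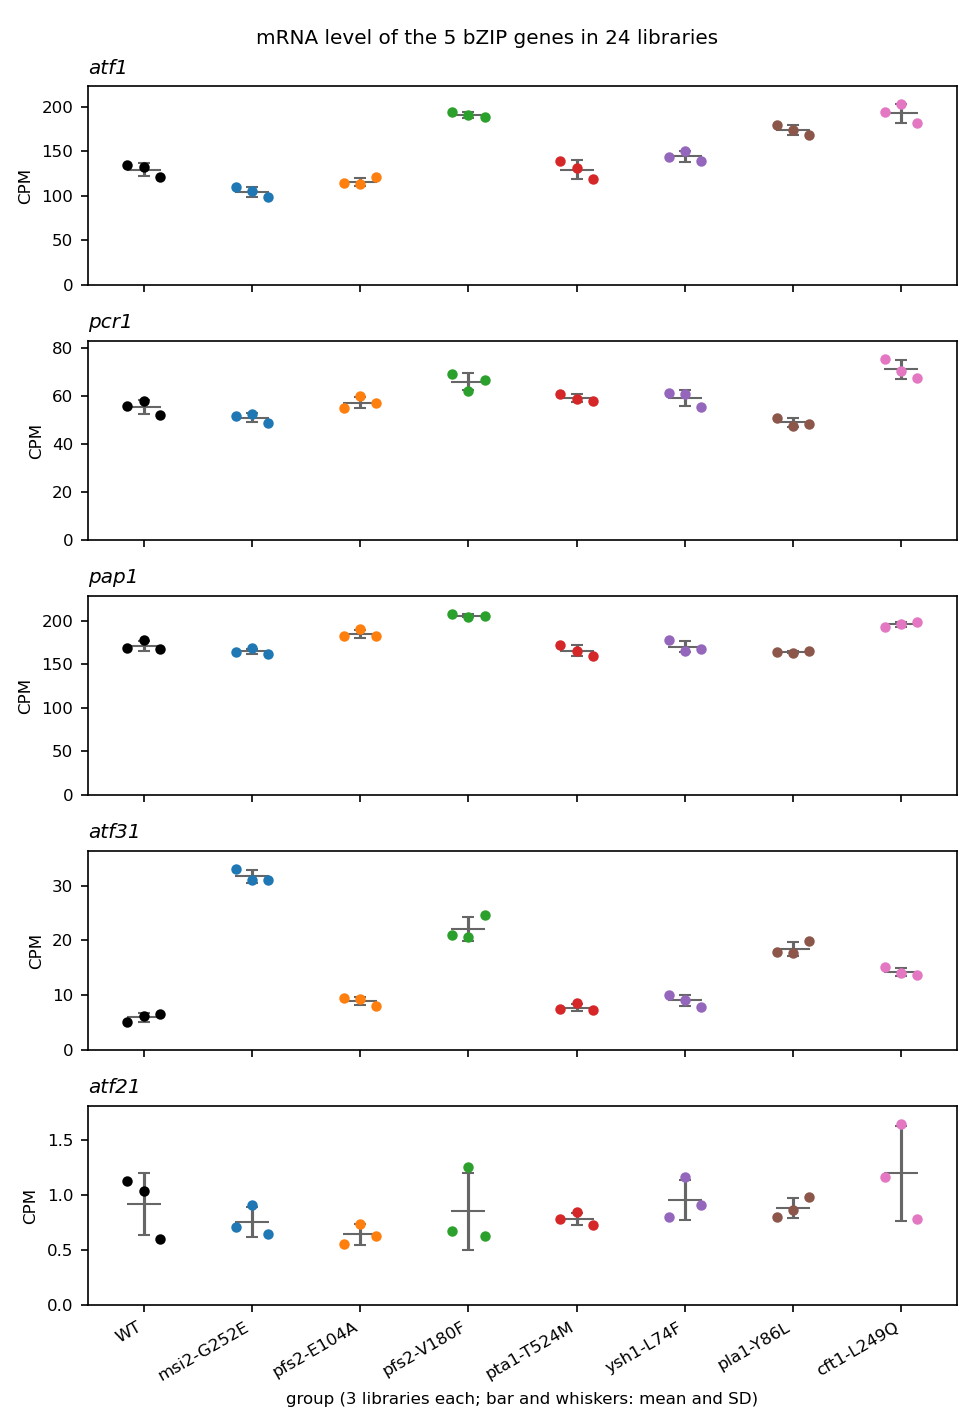
CPM of each gene (panels, each on its own linear axis from 0) in the 24 libraries; points are libraries and the bar with whiskers is the mean ± SD of the 3 libraries of a group. In the atf31 panel the WT libraries, at 5.08 to 6.64 CPM, lie below those of every mutant, and in the atf21 panel no library exceeds 1.65 CPM.

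pcr1, which encodes the partner of Atf1, moved over a narrower range. WT libraries had 55.7, 58.1 and 52.3 CPM (mean 55.3 ± 2.93, SD, n = 3). In cft1-L249Q pcr1 had 75.4, 70.5 and 67.4 CPM and rose by 0.36 ± 0.05 (log2, SE; adjusted p = 9.23e-06, edgeR). In pfs2-V180F it had 69.3, 62.2 and 66.5 CPM and rose by 0.25 ± 0.05 (adjusted p = 0.00044). Both sets of libraries lay wholly above WT, as they did for atf1.

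pla1-Y86L differed in direction: pcr1 had 51.0, 47.6 and 48.5 CPM there, all below WT, and fell by 0.17 ± 0.05 on the log2 scale (adjusted p = 0.00722, edgeR), while atf1 rose in the same libraries. Without WT replicate 2 this call was just lost (adjusted p = 0.0528). In msi2-G252E, with 51.6, 52.4 and 48.8 CPM, the libraries overlapped WT and the change of -0.12 ± 0.05 did not pass (adjusted p = 0.0598), though it did without WT replicate 3 (adjusted p = 0.0369). pfs2-E104A, pta1-T524M and ysh1-L74F had mean levels of 57.3, 59.2 and 59.3 CPM, which overlapped WT, and their adjusted p ran from 0.158 to 0.511. In the order of the levels (cft1-L249Q, pfs2-V180F, ysh1-L74F, pta1-T524M, pfs2-E104A, WT, msi2-G252E, pla1-Y86L) the step from pfs2-V180F to ysh1-L74F was the only one between neighbours that passed (log2 difference 0.15 ± 0.05, adjusted p = 0.0267). It was lost without pfs2-V180F replicate 1, pfs2-V180F replicate 3 or ysh1-L74F replicate 3 (adjusted p up to 0.112).

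Since the 2 proteins work as a pair, the log2 ratio of atf1 CPM to pcr1 CPM was also taken in each library, as a description with no test. Because gene length is not removed, only its difference between groups can be read. The WT libraries had 1.27, 1.19 and 1.21 (mean 1.22 ± 0.04, SD, n = 3). The ratio was highest in pla1-Y86L, at 1.82, 1.86 and 1.79, followed by pfs2-V180F with 1.49 to 1.61 and cft1-L249Q with 1.36, 1.52 and 1.43. All 9 of these libraries lay above WT. Below WT without overlap lay msi2-G252E, with 1.09, 1.01 and 1.01, and pfs2-E104A, with 1.05, 0.91 and 1.09. The libraries of pta1-T524M (mean 1.13) and ysh1-L74F (mean 1.28) overlapped WT. The 2 pfs2 alleles, both single changes in the WD-repeat subunit Pfs2, thus lay on opposite sides of WT.

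**Figure D3:**
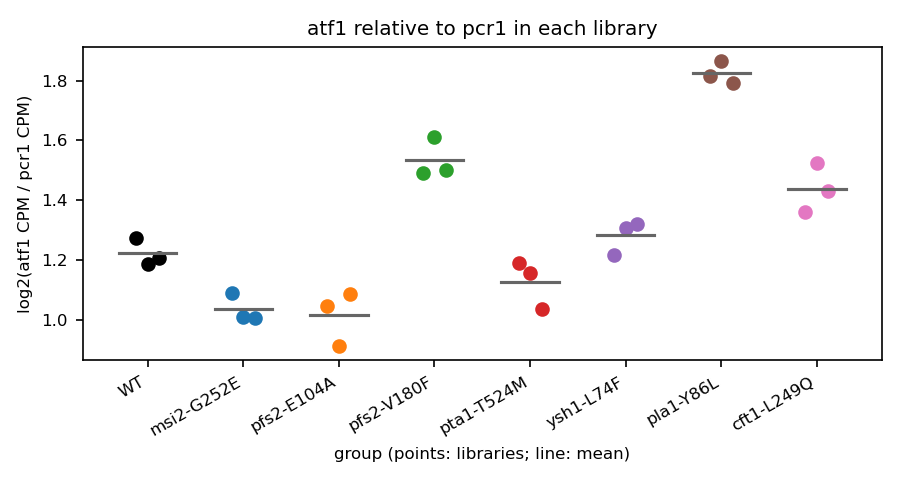
Log2 ratio of atf1 CPM to pcr1 CPM in each library (points) with the group mean (line). The pla1-Y86L libraries sit at 1.79 to 1.86, above those of every other group, and the msi2-G252E and pfs2-E104A libraries at 0.91 to 1.09, below all WT libraries.

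pap1, the oxidative stress regulator, varied least among the 4 well-measured genes. WT had 169.5, 178.0 and 167.3 CPM (mean 172 ± 5.70, SD, n = 3). In pfs2-V180F it had 207.9, 204.2 and 206.1 CPM, a rise of 0.26 ± 0.03 (log2, SE; adjusted p = 1.19e-06, edgeR). In cft1-L249Q it had 193.2, 196.7 and 199.0 CPM, a rise of 0.19 ± 0.03 (adjusted p = 8.33e-05). Neither group overlapped WT.

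In pfs2-E104A pap1 had 182.4, 190.7 and 182.6 CPM, all above WT, and the rise of 0.11 ± 0.03 passed (adjusted p = 0.0157, edgeR). It was lost without WT replicate 1 (adjusted p = 0.0585), WT replicate 3 (0.0765) or pfs2-E104A replicate 2 (0.0871), and when these 2 groups were fitted alone (0.0718). The other 4 mutants had mean levels of 164 to 170.3 CPM, and their adjusted p against WT ran from 0.118 to 0.866. Of these only pla1-Y86L had no overlap with WT: its 164.0, 163.6 and 165.6 CPM all lay below, without passing the test (adjusted p = 0.118, edgeR). In the order of the levels (pfs2-V180F, cft1-L249Q, pfs2-E104A, WT, ysh1-L74F, pta1-T524M, msi2-G252E, pla1-Y86L) the step from pfs2-E104A to WT was the only one between neighbours that passed.

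atf31 carried the widest changes of the 5 genes. Its WT libraries had 122, 155 and 177 reads, or 5.08, 6.17 and 6.64 CPM (mean 5.96 ± 0.80, SD, n = 3). In msi2-G252E it had 888, 784 and 811 reads, or 33.0, 31.1 and 31.0 CPM. These libraries were the highest of all 24, and the log2 fold change was 2.41 ± 0.10 (SE; adjusted p = 2.91e-15, edgeR), the 51st largest in size among the 6287 genes of that comparison.

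In pfs2-V180F atf31 had 21.1, 20.6 and 24.6 CPM, a log2 fold change of 1.89 ± 0.10 (adjusted p = 8.78e-13, edgeR; 50th largest). In pla1-Y86L it had 17.9, 17.6 and 19.8 CPM, a change of 1.63 ± 0.10 (adjusted p = 5.03e-12). In cft1-L249Q it had 15.1, 14.1 and 13.7 CPM, a change of 1.26 ± 0.11 (adjusted p = 2.84e-09). These 4 mutants stood more than 2-fold above WT, each with all of its libraries apart from WT.

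The remaining 3 mutants rose less. ysh1-L74F, with 10.03, 9.21 and 7.92 CPM, differed from WT by 0.60 ± 0.11 (log2; adjusted p = 0.000994, edgeR), and pfs2-E104A, with 9.46, 9.26 and 8.07 CPM, by 0.58 ± 0.11 (adjusted p = 0.000441). pta1-T524M, with 7.43, 8.55 and 7.27 CPM, differed by 0.37 ± 0.11 (adjusted p = 0.0127), a call that ended when WT replicate 1 (adjusted p = 0.0779) or pta1-T524M replicate 2 (0.0754) was left out. None of these libraries overlapped WT. The other 6 calls of atf31 against WT held when any 1 library of the groups compared was left out.

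The order of atf31 was msi2-G252E, pfs2-V180F, pla1-Y86L, cft1-L249Q, ysh1-L74F, pfs2-E104A, pta1-T524M and WT. Each of the first 4 differed from the next (adjusted p = 2.09e-05, 0.0126, 0.00128 and 3.37e-05, edgeR), the second of these steps failing without pfs2-V180F replicate 3 (adjusted p = 0.109). ysh1-L74F and pfs2-E104A (log2 difference 0.02 ± 0.11, adjusted p = 0.922) and pfs2-E104A and pta1-T524M (0.21 ± 0.11, adjusted p = 0.119) did not pass. Against the mean of the other 6 mutants, atf31 was higher by 1.35 ± 0.06 in msi2-G252E (adjusted p = 1.79e-14) and lower by a log2 value of -1.02 ± 0.08 in pta1-T524M (adjusted p = 6.14e-10). The 2 pfs2 alleles, tested directly, differed by -1.30 ± 0.10 for pfs2-E104A minus pfs2-V180F.

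In the reference annotation atf31 overlaps rdh54, which encodes a DNA translocase of recombination, on the opposite strand. The library kit was directional, but whether the counting used strand is not given in the sources used here, and reads of the 2 genes may not be separated. rdh54 had 30.5, 30.6 and 30.2 CPM in WT and 34.3, 31.1 and 31.7 CPM in msi2-G252E, where its log2 fold change was 0.09 ± 0.06 and did not pass (adjusted p = 0.183, edgeR) beside 2.41 for atf31. It fell in pfs2-E104A, pfs2-V180F, ysh1-L74F and cft1-L249Q, where atf31 rose, with log2 fold changes of -0.24, -0.21, -0.23 and -0.19. It rose with atf31 in pta1-T524M (0.32) and pla1-Y86L (0.24). The gene beside atf31 on its own strand, SPAC1296.01c (phosphoacetylglucosamine mutase), was called in pla1-Y86L (-0.42), pfs2-V180F (-0.12) and cft1-L249Q (-0.10), lower each time.

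**Figure D4:**
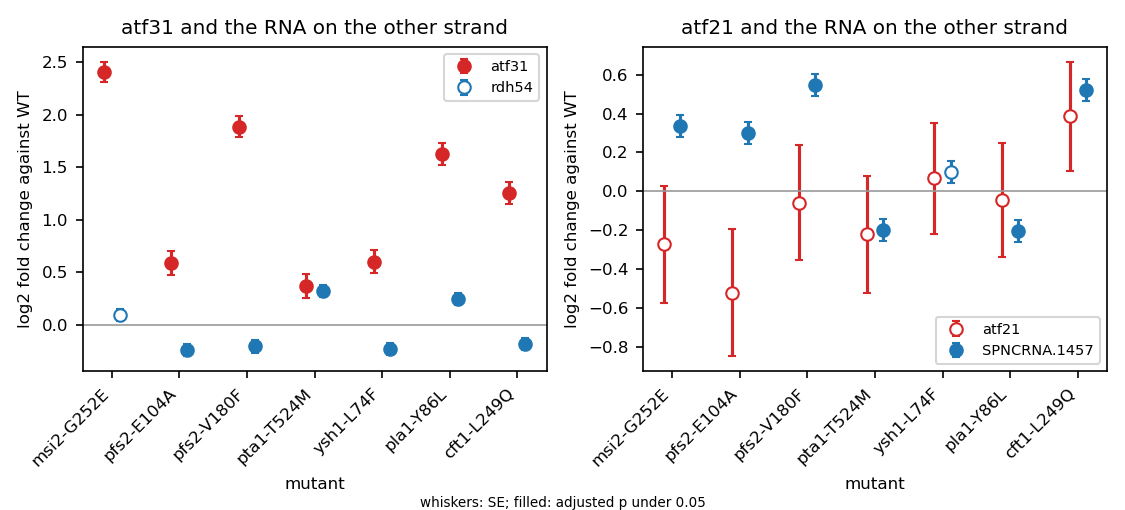
Log2 fold change against WT (whiskers 1 SE; filled points passed the test) of atf31 with rdh54 (left) and of atf21 with the noncoding RNA SPNCRNA.1457 (right), each pair annotated on opposite strands, in the 7 mutants. atf31 reaches 2.41 while rdh54 stays between -0.24 and 0.32; the atf21 whiskers are wide and none of its points is filled.

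atf21 gave 12 to 37 reads per library. WT had 27, 26 and 16 reads (1.12, 1.03 and 0.60 CPM), and the highest group, cft1-L249Q, had 31, 37 and 18 (1.16, 1.65 and 0.78 CPM). Every mutant overlapped WT. The log2 fold changes ran from -0.52 ± 0.33 (SE) in pfs2-E104A (adjusted p = 0.231, edgeR) to 0.39 ± 0.28 in cft1-L249Q (adjusted p = 0.279), so that with standard errors of about 0.3 none of these changes was detectable at this depth. The order by mean level was cft1-L249Q, ysh1-L74F, WT, pla1-Y86L, pfs2-V180F, pta1-T524M, msi2-G252E and pfs2-E104A, and no neighbours in it differed. Of the 21 pairs of mutants 1 was called, pfs2-E104A against cft1-L249Q, and it was lost without pfs2-E104A replicate 1, pfs2-E104A replicate 3, cft1-L249Q replicate 1 or cft1-L249Q replicate 2 (adjusted p up to 0.149). Without cft1-L249Q replicate 3 the pairs of cft1-L249Q with msi2-G252E (adjusted p = 0.0166), pta1-T524M (0.0289) and pla1-Y86L (0.0493) were called as well. Against the mean of the other 6 mutants cft1-L249Q was higher by 0.56 ± 0.22 (log2, SE; adjusted p = 0.0452), a call lost in 14 of 21 fits with 1 library left out (adjusted p up to 0.423). These left out replicate 1 or 3 of ysh1-L74F, pta1-T524M, pfs2-V180F, pfs2-E104A or msi2-G252E, or replicate 1 or 2 of pla1-Y86L or cft1-L249Q.

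The noncoding RNA SPNCRNA.1457, annotated on the strand opposite atf21, was far better covered, with 42.6, 46.6 and 42.7 CPM in WT. It rose in pfs2-V180F (0.55 ± 0.06, log2, SE), cft1-L249Q (0.52 ± 0.06), msi2-G252E (0.33 ± 0.06) and pfs2-E104A (0.30 ± 0.06), and fell in pta1-T524M and pla1-Y86L (-0.20 ± 0.06 each). Whether any atf21 reads came from it was not tested.

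Noncoding RNAs are also annotated opposite atf1 (SPNCRNA.5237), pcr1 (SPNCRNA.3903) and pap1 (SPNCRNA.2981 and SPNCRNA.2982), but they are absent from the count table. Whether reads from them were counted to atf1, pcr1 or pap1 was not tested. Genes beside the members were also measured. isp4, an oligopeptide transporter gene beside atf1 on the opposite strand, rose in msi2-G252E (1.02 ± 0.18, log2, SE) and pfs2-E104A (0.68 ± 0.19), where atf1 fell, in pfs2-V180F (0.71 ± 0.18), where atf1 rose, and in ysh1-L74F (0.91 ± 0.18), where atf1 did not pass. It fell in pla1-Y86L (-1.27 ± 0.20), where atf1 rose, and in pta1-T524M (-0.65 ± 0.19), where atf1 did not pass. fic1, on the other side of atf1, encodes a contractile ring anchor and was lower in 6 mutants, with -0.55 ± 0.04 in pla1-Y86L. aca1, an acetyltransferase gene beside pcr1 on the opposite strand, rose in pfs2-V180F (0.96 ± 0.08), cft1-L249Q (0.69 ± 0.08), pfs2-E104A (0.50 ± 0.08) and ysh1-L74F (0.36 ± 0.08) and fell in pla1-Y86L (-0.93 ± 0.09). rpl801, a ribosomal protein gene on the other side of pcr1, was lower in 6 mutants. Beside pap1, the autophagy gene atg12 was called only in msi2-G252E (0.46 ± 0.11), and the ribosomal protein gene rpl1502 was lower in msi2-G252E, pta1-T524M and cft1-L249Q. Beside atf21, ceg1, the mRNA capping guanylyltransferase gene, was called only in pfs2-E104A (0.18 ± 0.06). SPNCRNA.1441, which overlaps atf1 on its own strand, passed in none.

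The genes that act with these factors were taken from lists chosen with earlier results of these data known. Their counts are given beside the share of all genes tested that moved the same way. Of 9 genes of the Sty1 MAP kinase pathway, 7 fell and 1 rose in pla1-Y86L (32.4% of all genes fell and 32.2% rose), 6 fell and 1 rose in msi2-G252E (29.5% and 29.3%) and 5 fell and 2 rose in pfs2-V180F (24% and 24.1%). In pta1-T524M 3 fell and 0 rose (19.8% and 18.7%), in cft1-L249Q 2 fell and 2 rose (21% and 22.3%), in pfs2-E104A 0 fell and 2 rose (16.1% and 18.1%), and in ysh1-L74F 0 fell and 1 rose (6.84% and 7.57%). Single libraries moved these small counts. The 2 that rose in pfs2-E104A became 1 without WT replicate 1, WT replicate 2 or pfs2-E104A replicate 1 and 0 without pfs2-E104A replicate 3, and 1 fell there without WT replicate 2. In ysh1-L74F 0 rose without WT replicate 2, ysh1-L74F replicate 1 or ysh1-L74F replicate 2, 2 rose without ysh1-L74F replicate 3, and 1 fell without WT replicate 1. In cft1-L249Q 1 rose without WT replicate 2 and 1 fell without cft1-L249Q replicate 1. The list's median log2 fold change was -0.38 in pla1-Y86L, where that of all genes was 0.00. There mak3, a sensor histidine kinase, fell by 0.70 ± 0.04, mcs4, the response regulator, by 0.62 ± 0.05, win1, a MAP kinase kinase kinase, by 0.59 ± 0.04, and sty1 itself by 0.33 ± 0.03. wis1, the MAP kinase kinase, fell by 0.63 ± 0.10 in msi2-G252E.

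Of 7 genes for phosphatases and kinases acting on or below Sty1, 2 rose and 2 fell in both msi2-G252E (29.3% of all genes rose and 29.5% fell) and pla1-Y86L (32.2% and 32.4%), close to the shares over all genes. The counts were also 2 and 2 in pta1-T524M (18.7% and 19.8%). In pfs2-V180F 1 rose and 3 fell (24.1% and 24%), and in ysh1-L74F 1 rose and 0 fell (7.57% and 6.84%). Both pfs2-E104A (18.1% and 16.1%) and cft1-L249Q (22.3% and 21%) had 1 that rose and 1 that fell. pyp1, a tyrosine phosphatase that inactivates Sty1, fell by 0.82 ± 0.11 (log2, SE) in msi2-G252E, and ptc1, a type 2C phosphatase, rose in 6 mutants, by 0.63 ± 0.06 in cft1-L249Q. pyp2, a phosphatase gene that Atf1 itself induces, rose by 0.46 ± 0.08 in pla1-Y86L. cmk2, a calmodulin-dependent kinase gene, fell by 0.40 ± 0.06 in pta1-T524M. csx1, whose RNA-binding product is reported to stabilise atf1 mRNA, fell in 5 mutants, among them msi2-G252E (-0.46 ± 0.07), where atf1 was lower, and cft1-L249Q (-0.53 ± 0.07), where atf1 was higher. cip2, which encodes a Csx1-binding protein, fell in the same 5 mutants, by 0.57 ± 0.03 in pla1-Y86L, and cip1 rose by 0.22 ± 0.04 in pfs2-E104A.

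Of 10 genes reported to depend on Atf1 or Atf1-Pcr1, 6 rose and 0 fell in cft1-L249Q (22.3% of all genes rose and 21% fell there). In pfs2-V180F 6 rose and 2 fell (24.1% of all genes rose and 24% fell). The median log2 fold change of the list was 0.36 in cft1-L249Q and 0.28 in pfs2-V180F. In cft1-L249Q ctt1, the catalase gene, rose by 1.03 ± 0.10 (SE) and tps1, trehalose phosphate synthase, by 0.82 ± 0.06. In msi2-G252E, where atf1 was lower, 5 rose and 2 fell (29.3% of all genes rose and 29.5% fell). There cta3, a cation pump gene, had 0.97 ± 0.12, fbp1, fructose bisphosphatase, 0.87 ± 0.16, and ctt1 -0.88 ± 0.10. In pla1-Y86L 5 rose and 3 fell (32.2% of all genes rose and 32.4% fell), in pta1-T524M 4 rose and 1 fell (18.7% and 19.8%), in ysh1-L74F 2 rose and 0 fell (7.57% and 6.84%), and in pfs2-E104A 1 rose and 3 fell (18.1% and 16.1%). The count of 4 in pta1-T524M became 2 without pta1-T524M replicate 1, the count of 2 that fell in pfs2-V180F became 1 without WT replicate 2, WT replicate 3, pfs2-V180F replicate 1 or pfs2-V180F replicate 3, and the 1 that rose in pfs2-E104A became 0 without WT replicate 1, WT replicate 3, pfs2-E104A replicate 1 or pfs2-E104A replicate 2. Without WT replicate 1, 1 gene fell in cft1-L249Q.

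Of 8 genes reported to depend on Pap1, 7 rose and 0 fell in pta1-T524M, beside 18.7% of all genes that rose and 19.8% that fell. pap1 itself did not pass the test in pta1-T524M (log2 fold change -0.05 ± 0.03, SE). The list median was 0.97 there, led by gst2, a glutathione S-transferase gene, at 3.08 ± 0.09, obr1, a quinone oxidoreductase gene, at 1.36 ± 0.10, and bfr1, a drug efflux pump gene, at 1.17 ± 0.08. In msi2-G252E 6 rose and 2 fell (29.3% of all genes rose and 29.5% fell), with srx1, the sulfiredoxin gene, at 2.45 ± 0.17 and gst2 at 2.18 ± 0.08. In pla1-Y86L 6 rose and 1 fell (32.2% of all genes rose and 32.4% fell), with bfr1 at 1.56 ± 0.08. In cft1-L249Q 6 rose and 0 fell (22.3% of all genes rose and 21% fell), with gst2 at 1.88 ± 0.08. In pfs2-V180F, which had the highest pap1 level, 3 rose and 1 fell (24.1% of all genes rose and 24% fell). In pfs2-E104A 1 rose and 3 fell (18.1% and 16.1%), and in ysh1-L74F 0 rose and 2 fell (7.57% and 6.84%). The counts of 1 to 2 moved with single libraries: gst2 was the 1 that rose in pfs2-E104A and was not called without WT replicate 1, WT replicate 2, pfs2-E104A replicate 1 or pfs2-E104A replicate 3, the 2 in ysh1-L74F became 0 without WT replicate 1, WT replicate 2, ysh1-L74F replicate 1 or ysh1-L74F replicate 2 and 1 without WT replicate 3, the 1 that fell in pla1-Y86L became 2 without WT replicate 3, and 1 fell in cft1-L249Q without cft1-L249Q replicate 3. ctt1 is on this list and on the Atf1 list.

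**Figure D5:**
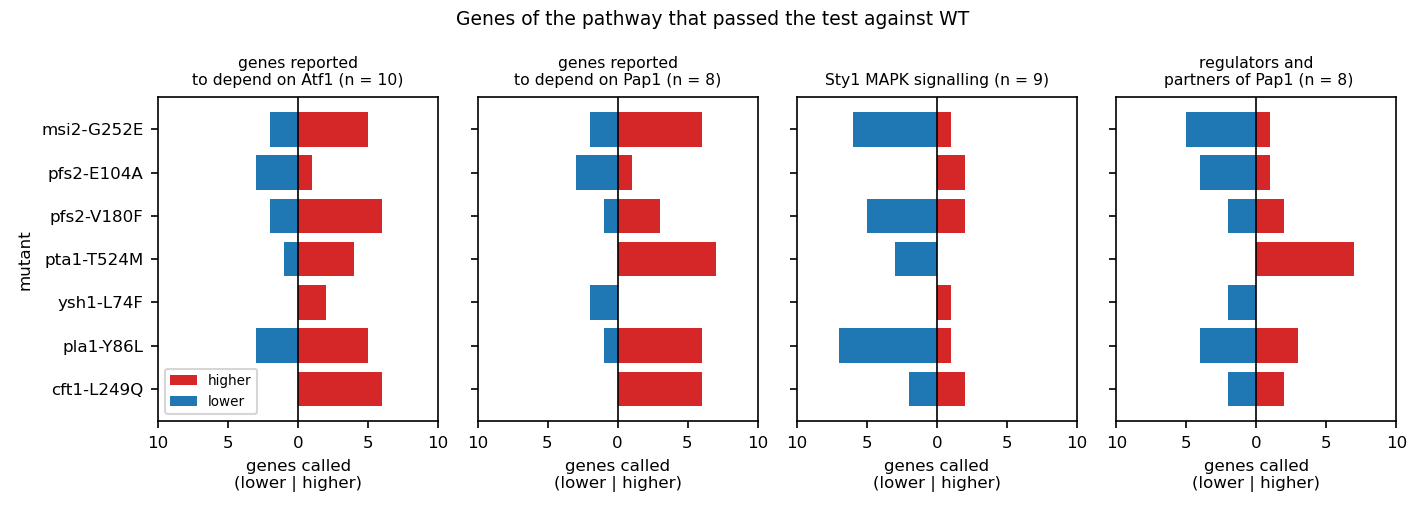
Number of genes of 4 lists called higher (red, right of 0) or lower (blue, left of 0) than WT in each mutant; n is the size of the list. The list of genes reported to depend on Pap1 has 7 of 8 higher in pta1-T524M, and the Sty1 MAPK list has 7 of 9 lower in pla1-Y86L.

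Among 8 regulators and partners of Pap1, 7 rose and 0 fell in pta1-T524M (18.7% of all genes rose and 19.8% fell), with a small median log2 fold change of 0.19, while 5 fell and 1 rose in msi2-G252E (29.5% and 29.3%). In pfs2-E104A 4 fell and 1 rose (16.1% and 18.1%), and in pla1-Y86L 4 fell and 3 rose (32.4% and 32.2%). In ysh1-L74F 2 fell and 0 rose (6.84% and 7.57%). Both pfs2-V180F (24% and 24.1%) and cft1-L249Q (21% and 22.3%) had 2 that fell and 2 that rose. crm1, the exportin of Pap1, rose by 0.20 ± 0.04 (SE) in pta1-T524M and fell by 0.61 ± 0.04 in pla1-Y86L and by 0.45 ± 0.04 in msi2-G252E. tpx1, the peroxiredoxin that passes peroxide oxidation on to Pap1, rose by 0.46 ± 0.07 in pta1-T524M and fell by 0.64 ± 0.07 in cft1-L249Q. oxs1, which encodes a partner factor of Pap1, rose by 0.92 ± 0.08 in msi2-G252E and by 0.82 ± 0.08 in pla1-Y86L. prr1, a response regulator that acts with Pap1, fell by 0.56 ± 0.04 in pla1-Y86L.

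zip1, a further bZIP gene whose product acts in the response to cadmium and sulfur supply, was measured for comparison. Its mean level was 314 ± 10.3 CPM (SD, n = 3) in WT. It rose in pfs2-V180F (0.17 ± 0.04, log2, SE) and cft1-L249Q (0.13 ± 0.04) and fell in pla1-Y86L (-0.22 ± 0.04) and msi2-G252E (-0.20 ± 0.04).

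As atf21 and atf31 are known from meiosis, 6 regulators of differentiation and meiosis were listed too. In pla1-Y86L 2 rose and 2 fell, close to the 32.2% and 32.4% over all genes, and in msi2-G252E the counts were also 2 and 2 (29.3% and 29.5%), with 1 that rose without msi2-G252E replicate 2. In pfs2-E104A 0 rose and 4 fell (18.1% and 16.1%), but 1 fell without WT replicate 1, WT replicate 2 or pfs2-E104A replicate 3, and 2 without pfs2-E104A replicate 2. In pfs2-V180F 2 rose and 3 fell (24.1% and 24%), and in cft1-L249Q 1 rose and 2 fell (22.3% and 21%). In ysh1-L74F 0 rose and 2 fell (7.57% and 6.84%), and in pta1-T524M 1 rose and 1 fell (18.7% and 19.8%). mei2, the RNA-binding master regulator of meiosis, fell in 6 mutants, by 3.95 ± 0.18 (log2, SE) in pla1-Y86L and by 1.87 ± 0.15 in msi2-G252E, where atf31 rose. ste11, the factor that starts sexual differentiation, fell in all 7 with every library kept, by 1.62 ± 0.20 in msi2-G252E. In pfs2-E104A the calls of mei2 and ste11 did not both hold in the fits above that left 1 gene called lower. mei4, a forkhead factor of the meiotic programme, rose in pla1-Y86L (1.51 ± 0.14), pfs2-V180F (0.83 ± 0.15) and msi2-G252E (0.44 ± 0.16). cuf2, a meiotic copper-related factor, had -1.41 ± 0.54 in pfs2-E104A (adjusted p = 0.0451, edgeR). That call rests on few reads, 9, 2 and 3 in pfs2-E104A and 16, 19 and 10 in WT.

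For each member the 3 named protein-coding genes whose log2 CPM had the highest Pearson r with it over the 24 libraries, among 4221 candidates, were listed as a description. The libraries fall into 8 groups and share their scaling, so they are not 24 independent points. For atf31 they were mug125 (r = 0.94), spo12 (0.93) and agp3, an amino acid transporter gene (0.92). mug125 had log2 fold changes of 1.70 in pfs2-V180F, 1.59 in msi2-G252E, 1.20 in pla1-Y86L and 0.89 in cft1-L249Q. It had 0.55 in pfs2-E104A and 0.34 in pta1-T524M, but in ysh1-L74F its 0.09 did not pass (adjusted p = 0.591, edgeR). Neither spo12 nor agp3 passed in pfs2-E104A, pta1-T524M or ysh1-L74F, where atf31 was called, and agp3 also did not in cft1-L249Q. For atf1 they were glo1, glyoxalase I (0.94), git5, a G protein beta subunit (0.91), and tcb3, a tricalbin (0.88). For pcr1 they were nup97, a nuclear pore gene (0.90), tgd1 (0.88) and tcg1 (0.87). For pap1 they were ubc8, a ubiquitin-conjugating enzyme (0.89), the actin gene act1 (0.89) and mus81, a junction resolvase subunit (0.87). atf21, at its low counts, reached only 0.67 with btn1, 0.61 with plo1 and 0.60 with xrc4. Among the members themselves pcr1 and pap1 were most alike (0.78), followed by atf1 with pap1 (0.57) and with pcr1 (0.55), and atf31 was between -0.11 and 0.18 with the other 4.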

How the data were processed

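The deposited count table holds raw counts, 1 column per library. HISAT2 2.1.0, SAMtools, HTSeq 0.10.0, DESeq2 and build ASM294v2 are named, per the submitters' processing notes; neither annotation release nor strand setting is given in the sources used here. The authors also deposited comparison tables with log2 fold changes and adjusted p-values, per the file headers.

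Counts were tested with edgeR 4.0.16 (limma 3.58.1, R 4.3.3): filterByExpr, TMM, 1 mean per group over 24 libraries (16 residual degrees of freedom), quasi-likelihood F-tests, and Benjamini-Hochberg adjustment over 6287 genes per comparison. Scripts were tested on simulated data. Alternatives were DESeq2 1.42.0 (Wald test, size factors), no filter, 2 groups alone, a replicate block and leaving out each library. No 2 replicates agreed within sampling noise (chi-square per degree of freedom 2.60 to 23.8 over 24 pairs). The highest values each involved 1 library of a group. These were cft1-L249Q replicate 1 (21.7 and 23.8, beside 10.6 without it), ysh1-L74F replicate 3 (17.0 and 18.3, beside 4.58) and pla1-Y86L replicate 3 (16.0 and 17.3, beside 2.60).

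Members and lists were chosen with earlier results of these data known. Named besides the members were up to 4 called genes per list with the largest change in any mutant and libraries apart from WT, the 3 genes most alike to each member, and neighbours. Values of such genes in further mutants, and of sty1, were chosen after they were seen. The reference annotation, of another assembly, served only for names and neighbours.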

Additional observations from a re-analysis of the deposited data

How the results depend on the processing

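No change that was called in either fit reversed direction. Changes that were not called could switch sign, as for atf1 in pta1-T524M against WT (-0.04 to 0.07 over leaving out 1 library). All 35 comparisons of a member with WT kept the same call under DESeq2 size factors, under the DESeq2 Wald test and with no filter on low counts. With the 2 groups alone 34 kept it, the exception being pap1 in pfs2-E104A (log2 fold change 0.10, no longer called). The authors' deposited tables call 19 of the 35, of which 18 are called here, and the log2 fold changes differ by at most 0.0173. The range over leaving out 1 library was -0.20 to -0.13 for atf1 and 0.087 to 0.14 for pap1 in pfs2-E104A, 0.28 to 0.47 for atf31 in pta1-T524M, -0.21 to -0.13 for pcr1 in pla1-Y86L, -0.15 to -0.072 for pcr1 in msi2-G252E and 0.11 to 0.19 for atf1 in ysh1-L74F. Members called then numbered 1 to 3 in pfs2-E104A, 0 to 1 in pta1-T524M, 1 to 2 in ysh1-L74F and 2 to 3 in both msi2-G252E and pla1-Y86L. They stayed at 4 in pfs2-V180F and cft1-L249Q. All genes called in ysh1-L74F numbered 411 to 1055, against 906 with all libraries, with 585 without WT replicate 3, 411 without ysh1-L74F replicate 1 and 415 without ysh1-L74F replicate 2. Of 672 list counts with 1 library left out, 88 moved by over 1.5 times, as did 14 of 112 with the 2 groups alone, 8 under the DESeq2 Wald test, 4 with the replicate block, 2 under DESeq2 size factors and 2 with no filter. Between mutants, DESeq2 size factors added pap1 in pfs2-E104A against cft1-L249Q (-0.09, adjusted p = 0.0492).

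Replicate numbers gave at most a weak pairing of the samples. Deviations of same-numbered mutant and WT libraries correlated at -0.10 to 0.21, over 0.1 in 4 of 21 pairs and in all pairs of 0 mutants. In pfs2-E104A (r = 0.06 to 0.14) and cft1-L249Q (0.06 to 0.21) each WT library correlated best with the mutant library of its own number. What the numbers mark is not given, and pairing within single mutants was not tested further. With the replicate number as a block, pcr1 in msi2-G252E (-0.12, adjusted p = 0.0336) and atf1 in ysh1-L74F (0.16, adjusted p = 0.0194) were called as well, the latter making 2 members called in ysh1-L74F, and no other call of a member against WT changed. Between mutants the block added atf21 in msi2-G252E against cft1-L249Q (-0.65, adjusted p = 0.0277).

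Depth limits atf21, with 12 to 37 reads per library. The causes of these shifts were not tested.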
